A study of Mus musculus with 6 samples.

Results

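Lymphoid priming is the low expression, in stem and early progenitor cells, of genes whose main use lies later in the B, T and natural killer (NK) cell lineages. The genes described here are 9 rows of the deposited table, 8 of them among the 12008 genes abundant enough for the fit. They were picked by symbol and chosen by their normalized CPM in this same genotype comparison, whose results were already known: Thy1, Tespa1, Gzmb, Il7r, Dntt, Rag1, Satb1, Ikzf1 and Cd27. The RNA was that of bone marrow LT-HSC, long-term haematopoietic stem cells, from C57BL/6 mice. After lineage depletion, the sort took Sca-1+ Kit+ CD150+ cells that lacked CD34, CD48 and Flk2. Of the 6 libraries, 3 are labelled Itpkb-/- (ENU-induced Ms T-less allele) and 3 wild-type, from littermate controls. Each library was a separate pool of 4 age-matched mice with at least 10000 sorted cells, and 1 to 5 ng of RNA was amplified. Neither the ages nor any treatment is given, and the labels name no driver that would limit the allele to 1 cell type.

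Itpkb encodes a kinase that converts inositol trisphosphate (IP3) to inositol tetrakisphosphate, and mice without it are known for a block in T cell development. In lymphoid-primed multipotent progenitors, Ikaros (Ikzf1) is required early for the lymphoid programme, and Flt3 marks cells that have left the LT-HSC stage. CD27 is present on multipotent progenitors, and its transcript was abundant in the LT-HSC libraries here. Rag1, Dntt and Il7r follow as cells approach the common lymphoid progenitor. Thy1, Tespa1 and Gzmb are best known from T cells and cytotoxic lymphocytes.

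Library totals recovered from the table were 4024203 to 7470329 reads, and 1 read was worth 0.131 to 0.249 normalized CPM (reads scaled to library size). The detection floor used here, 3 reads in a library, was 0.393 to 0.746 normalized CPM and covers counting error only. Itpkb itself measured 10.2, 13.99 and 18.2 normalized CPM in Itpkb-/- libraries 1 to 3, against 22.1, 23.6 and 25.1 in wild-type libraries 1 to 3, a log2 difference of -0.73 (SE 0.24; limma, adjusted p = 0.172). With the replicate number as a block it passed the limit (adjusted p = 0.0541). All 3 Itpkb-/- libraries lay lower than all 3 wild-type libraries. All 12 stem cell markers checked were detected, in sums of 1620 to 2218 normalized CPM in Itpkb-/- and 2781 to 3356 in wild-type libraries. Of these 12, 6 fell and none rose (limma, median log2 difference -0.78), where 3.24% of all genes in the fit were called lower. For 8 of them every Itpkb-/- library lay below every wild-type one, as for 11.3% of all genes in the fit. The part of this in the members' differences was not tested.

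Of the 9 genes, 7 have an upstream sequence in the RefSeq table for GRCm38.p6, the assembly also called mm10; Thy1 and Tespa1 have none in it. The 250 bases before the start site are shown for Gzmb, which had 0 reads in all wild-type libraries, for the recombination genes Dntt and Rag1, and for Cd27, the most abundant of the 9 genes per kilobase. They run 5′ to 3′ on the strand of the gene, and capitals mark every match, on either strand, to the E box CANNTG, the Runx motif TGTGGT, the Ikaros motif TGGGAA or the AP-1 motif TGANTCA. The windows are chr14:56262335-56262584 (minus strand) for Gzmb, chr19:41029025-41029274 (plus strand) for Dntt, chr2:101649533-101649782 (minus strand) for Rag1 and chr6:125237028-125237277 (minus strand) for Cd27.
Gzmb: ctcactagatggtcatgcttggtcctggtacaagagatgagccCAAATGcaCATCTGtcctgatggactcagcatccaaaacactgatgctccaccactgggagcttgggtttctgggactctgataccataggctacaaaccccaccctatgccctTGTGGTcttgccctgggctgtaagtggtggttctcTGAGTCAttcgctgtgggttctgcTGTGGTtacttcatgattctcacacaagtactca
Dntt: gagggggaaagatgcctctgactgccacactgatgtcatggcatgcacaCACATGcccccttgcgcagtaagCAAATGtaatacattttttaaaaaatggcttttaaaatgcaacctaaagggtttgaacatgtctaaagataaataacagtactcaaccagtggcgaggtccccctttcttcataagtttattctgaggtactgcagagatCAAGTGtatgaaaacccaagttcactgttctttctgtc
Rag1: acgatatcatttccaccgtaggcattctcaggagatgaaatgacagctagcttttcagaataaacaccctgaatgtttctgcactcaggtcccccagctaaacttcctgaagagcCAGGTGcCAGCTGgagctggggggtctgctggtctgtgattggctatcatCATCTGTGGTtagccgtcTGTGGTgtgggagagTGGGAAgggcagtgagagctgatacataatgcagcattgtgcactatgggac
Cd27: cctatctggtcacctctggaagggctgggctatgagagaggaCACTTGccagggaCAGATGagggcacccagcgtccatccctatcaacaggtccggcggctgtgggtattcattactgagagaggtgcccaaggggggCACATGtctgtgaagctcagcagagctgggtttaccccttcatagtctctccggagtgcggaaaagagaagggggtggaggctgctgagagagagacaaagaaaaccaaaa
The Gzmb window held 2 E boxes, 2 Runx matches, at -93 and -34 from the start, and 1 AP-1 match at -58. The Rag1 window held 3 E boxes, 2 Runx matches, at -81 and -67, and 1 Ikaros match at -52, and its E box at -85 shares bases with the Runx match at -81. Dntt and Cd27 each had 3 E boxes and no match to the other motifs, as had Il7r, whose window is not shown. Neither of the 2 Ikzf1 windows held a match to any of the 4 motifs. Among all 32851 windows of this length, 66.2% held an E box, 14.0% the Runx motif, 21.6% the Ikaros motif and 6.7% the AP-1 motif. A match is a string of letters, and no binding was measured in these samples.

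The 9 genes fell into 3 sets by their values. Thy1, Tespa1 and Gzmb were higher in every Itpkb-/- library than in every wild-type library. Il7r, Dntt and Rag1 had at most 39 reads in any library and overlapped between genotypes, and Satb1, Ikzf1 and Cd27 had at least 89 reads in every library and overlapped too. The fit took in genes that reached 1 normalized CPM in 3 or more libraries, 12008 in all, which left out Il7r. The fit called 3 of the 8, all higher in Itpkb-/- cells, where 2.27% of all genes in the fit were called higher and 3.24% lower, or 5.50% in either direction (limma, adjusted p of at most 0.15). With the replicate number as a block, 2176 genes were called in place of 661, or 18.1% (9.15% higher and 8.97% lower), and the same 3 of the 9. The Itpkb-/- libraries all lay above the wild-type ones for 1204 genes in the fit, or 10%, and all below for 11.3%. Since the genes were named with this comparison known, their differences are given as a description, and nothing is read from the 3 calls. The median log2 difference of the 8 genes was 0.16, beside 0.0018 for all genes in the fit.

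**Figure D1:**
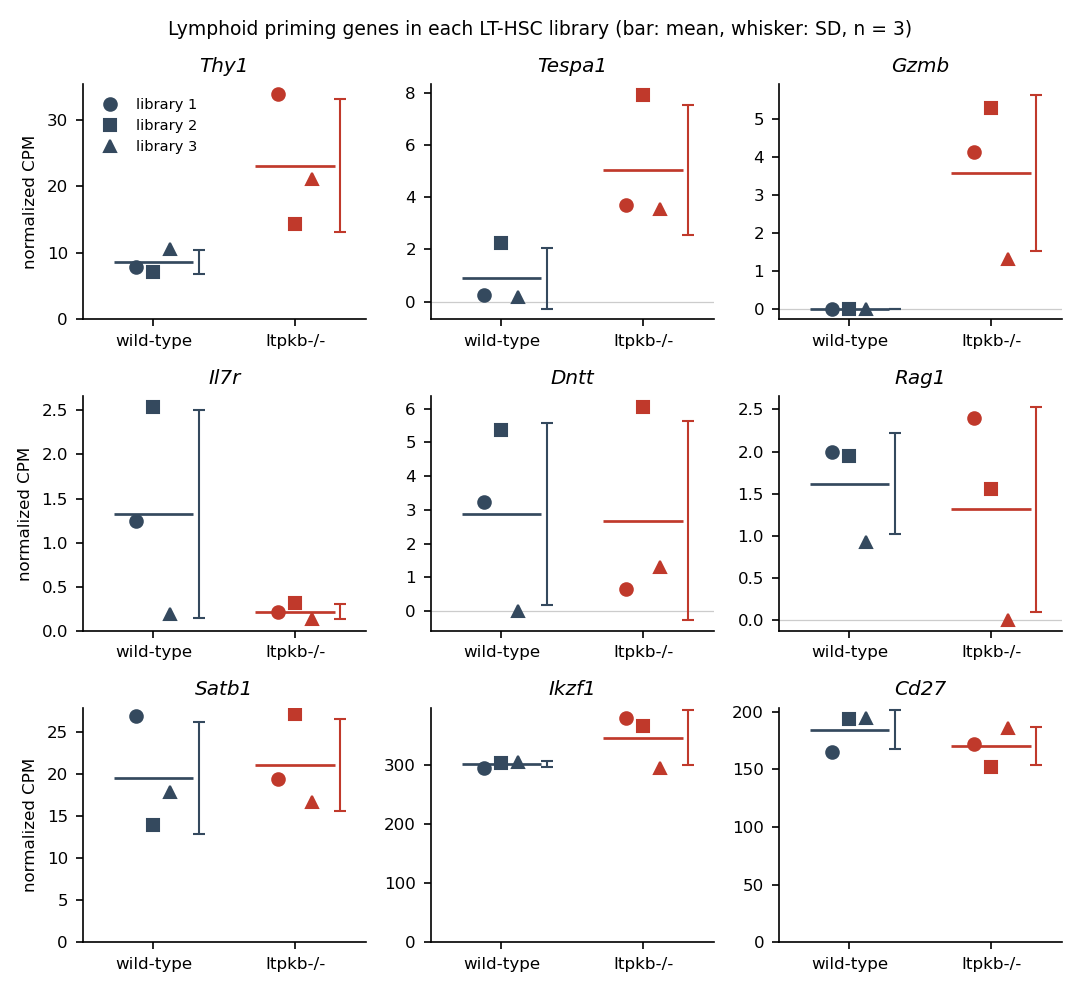
Each panel plots the normalized CPM of 1 gene (vertical axis, linear and reaching down to 0) in the wild-type (dark) and Itpkb-/- (red) libraries; marker shapes give the library number, horizontal bars the mean and whiskers the SD (n = 3). Thy1, Tespa1 and Gzmb show no overlap between genotypes, with Gzmb at 0 in all 3 wild-type libraries, and the other 6 panels overlap.

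Thy1 (chromosome 9, 44043384 to 44048579, plus strand) encodes a membrane glycoprotein with a lipid anchor that marks T cells and thymocytes and is found at a low level on mouse HSC. It measured 33.98, 14.3 and 21.1 normalized CPM in Itpkb-/- libraries 1 to 3, against 7.96, 7.17 and 10.6 in wild-type libraries 1 to 3. Itpkb-/- library 1 stood highest, and the lowest Itpkb-/- value was above the highest wild-type value. Mean Thy1 was 23.1 ± 9.996 in Itpkb-/- against 8.58 ± 1.8 in wild type (SD, n = 3 each), which gave a log2 difference of 1.27 (SE 0.31). These values rest on 92 to 161 reads per Itpkb-/- library and 32 to 57 per wild-type library. Without 1 library the log2 difference ran from 0.96, without Itpkb-/- library 1, to 1.55, and the fit made no call for Thy1 when wild-type library 1, 2 or 3 was left out.

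Tespa1 (chromosome 10, 130322870 to 130364111, plus strand) encodes a thymocyte protein that associates with IP3 receptors and is needed for the positive selection of T cells. It measured 3.70, 7.92 and 3.54 normalized CPM in Itpkb-/- libraries 1 to 3, against 0.249, 2.24 and 0.186 in wild-type libraries. Wild-type library 2, with 15 reads, stood apart from the other two, which had 1 read each. The Itpkb-/- libraries had 17, 51 and 27 reads, and in both genotypes the library numbered 2 was highest. The means were 5.06 ± 2.49 and 0.892 ± 1.17 (SD, n = 3 each), with a log2 difference of 1.77 (SE 0.48). That scale adds 1 to each value and understates the change of so low a gene: with 0.25 added the log2 difference was 2.61, and with 5 added 0.76. The fit made no call without Itpkb-/- library 2 (log2 difference 1.45), wild-type library 1 (1.55) or wild-type library 3 (1.52), nor did edgeR on the recovered reads (2.35).

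Gzmb (chromosome 14, 56258838 to 56262260, minus strand) encodes granzyme B, a serine protease that cytotoxic T and NK cells release from granules to kill target cells. It measured 4.14, 5.28 and 1.31 normalized CPM in Itpkb-/- libraries 1 to 3, from 19, 34 and 10 reads, and had 0 reads in each wild-type library. No other of the 9 genes had 0 reads in a whole genotype. Over the pooled libraries, 63 reads in Itpkb-/- (3.38 normalized CPM) stood 18.1-fold above a floor of 3 reads in wild type (0.187). That ratio leaves out the counting error of the 63 reads and the spread between libraries. Itpkb-/- library 3 alone was at 1.31, beside floors of 0.448 to 0.746 in single wild-type libraries. Gzmb entered the fit through the Itpkb-/- libraries alone, so within the fit it could not have come out level, and Tespa1, with 3 Itpkb-/- libraries and 1 wild-type library at 1 or above, would also have entered through them alone. Its fitted log2 difference of 2.07 (SE 0.45) depends on the value added before the logarithm and is no bound. No call was made without Itpkb-/- library 2 (log2 difference 1.79) or wild-type library 3 (2.07), and edgeR's own filter on low counts left the gene out.

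Gzmb lies in a cluster of related serine protease genes on chromosome 14, so reads could in principle have been shared with a near copy. Gzmc, Gzmd, Gzme, Gzmf, Gzmg and Gzmn had 0 reads in all 6 libraries. Of the granzymes encoded elsewhere, Gzma had 5 reads, all in Itpkb-/- library 2, and Gzmk had 0 reads in all 6. Among granzymes in the table, Gzmm was the other one with more than 5 reads, at 0, 1.09 and 1.18 normalized CPM in Itpkb-/-, against 1.24, 1.35 and 0 in wild-type libraries, with no separation of the genotypes. These granzymes were looked up after the Gzmb values had been seen.

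Il7r (chromosome 15, 9505788 to 9530176, minus strand) encodes the alpha chain of the interleukin-7 receptor, which carries the main survival and growth signal of early lymphoid cells. It had 1, 2 and 1 reads in Itpkb-/- libraries 1 to 3 and 5, 17 and 1 reads in the wild-type libraries. In normalized CPM these were 0.218, 0.311 and 0.131 against 1.24, 2.54 and 0.186. All 3 Itpkb-/- values were below the floor, and so was wild-type library 3, so the genotypes overlapped. No fold is given, since the wild-type mean of 1.32 ± 1.18 normalized CPM (SD, n = 3) comes almost wholly from 2 libraries.

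Rag1 (chromosome 2, 101638282 to 101649501, minus strand) and Dntt (chromosome 19, 41029275 to 41059525, plus strand) encode a subunit of the recombinase that cuts antigen receptor genes and the terminal transferase that adds bases at the joins. Rag1 measured 2.40, 1.55 and 0 normalized CPM in Itpkb-/- libraries 1 to 3, against 1.99, 1.94 and 0.931 in wild-type libraries. Its reads numbered 11, 10 and 0 against 8, 13 and 5, with a log2 difference of -0.32 (SE 0.50). The genotypes overlapped, and the value of 0 in Itpkb-/- library 3 allows up to 0.393 normalized CPM.

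Dntt measured 0.653, 6.06 and 1.31 normalized CPM in Itpkb-/- libraries 1 to 3, against 3.23, 5.38 and 0 in wild-type libraries. The reads behind them were 3, 39 and 10 against 13, 36 and 0, so the spread within each genotype was far wider than the distance between the means of 2.67 ± 2.95 and 2.87 ± 2.71 (SD, n = 3 each). The library numbered 2 was highest in both genotypes, as for Tespa1. The log2 difference was -6.1e-04 (SE 0.71), and without 1 library it ran from -0.79 to 0.54. Dntt thus gave no difference in either direction that exceeded its spread.

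Satb1 (chromosome 17, 51736187 to 51833290, minus strand) encodes a chromatin organizer of thymocytes that has been tied to lymphoid potential in HSC. It was at 19.4, 27.2 and 16.6 normalized CPM in Itpkb-/-, against 26.9, 13.9 and 17.9 in wild-type libraries 1 to 3. Each genotype had 1 library well above the other two, number 2 in Itpkb-/- and number 1 in wild type. The log2 difference was 0.12 (SE 0.28), smaller than its error, from 89 to 175 reads per library.

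Ikzf1 (chromosome 11, 11685003 to 11772926, plus strand) encodes Ikaros, the zinc finger factor on which lymphoid priming depends. It was at 379, 366 and 294 normalized CPM in Itpkb-/-, against 296, 304 and 306 in wild-type libraries 1 to 3. The wild-type values lay within a narrow band (301.9 ± 5.42, SD, n = 3), Itpkb-/- libraries 1 and 2 stood above it, and Itpkb-/- library 3 just below. The means differed by 0.19 on the log2 scale (SE 0.13), and the fit made no call, with or without the block. Each library held at least 1189 reads of it.

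Cd27 (chromosome 6, 125232622 to 125237010, minus strand) encodes a receptor of the tumour necrosis factor family that acts in T and B cell costimulation and is present on multipotent progenitors. It was at 172, 152 and 186 normalized CPM in Itpkb-/-, against 165, 194 and 194 in wild-type libraries 1 to 3. The genotypes overlapped, with means of 170.1 ± 16.8 and 184.1 ± 16.9 (SD, n = 3 each) and a log2 difference of -0.11 (SE 0.13). The transcript was thus abundant in both genotypes of cells sorted on other surface proteins. Of its exon bases, 5.5% are shared with an annotated microRNA gene, and 1.2% of those of Rag1 with a neighbouring gene.

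**Figure D2:**
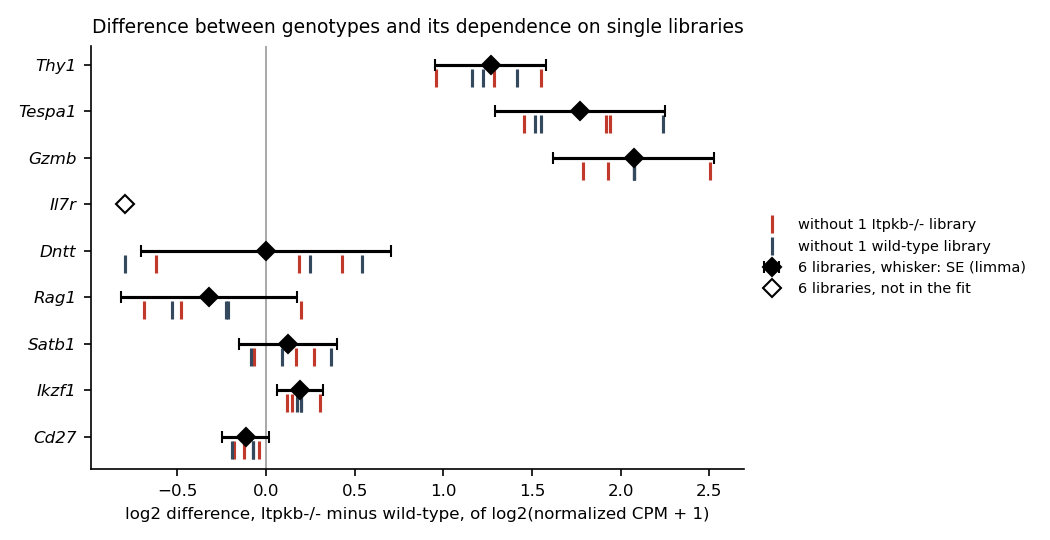
Diamonds show the log2 difference of each gene (horizontal axis, Itpkb-/- minus wild-type, on log2 of normalized CPM plus 1) with the limma SE as whiskers; ticks show the difference without 1 Itpkb-/- (red) or 1 wild-type (dark) library, and the open diamond marks Il7r, which was not in the fit. Ticks of Thy1, Tespa1 and Gzmb all stay above 0.9, those of Dntt run from -0.79 to 0.54.

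Levels can be compared between genes only per length, here normalized CPM per kilobase of annotated exon, all isoforms joined. In wild-type libraries Cd27 came first at 79.1 ± 7.26 and Ikzf1 second at 52.3 ± 0.937 (SD, n = 3, as for the values that follow). Thy1 followed at 2.87 ± 0.601, then Dntt at 1.25 ± 1.18 and Satb1 at 1.03 ± 0.349, which did not differ beyond their spread. Il7r at 0.284 ± 0.253, Rag1 at 0.245 ± 0.0905 and Tespa1 at 0.142 ± 0.186 could not be ordered, and Gzmb had no reads. The abundant genes were thus Cd27 and Ikzf1, both known from multipotent cells, and the genes of recombination and of mature T cells were rare.

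In Itpkb-/- libraries Cd27 at 73.1 ± 7.2 and Ikzf1 at 60.0 ± 7.94 normalized CPM per kilobase were again first, and Thy1 followed at 7.72 ± 3.34. Gzmb, at 2.49 ± 1.42, took the place after Thy1, within the spread of Dntt at 1.17 ± 1.29. Satb1 was at 1.11 ± 0.288 and Tespa1 at 0.803 ± 0.395, which overlapped. Rag1 at 0.199 ± 0.184 and Il7r at 0.0472 ± 0.0193 came last. In bulk RNA, more cells with a transcript and more transcript per cell cannot be told apart, so a few Gzmb-rich cells and a low level in many would give the same value.

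The 9 genes did not vary as a unit across libraries. Over the 6 libraries, which hold both genotypes, Pearson's r of log2 values was 0.86 between Tespa1 and Gzmb and 0.54 between Thy1 and Tespa1. With genotype means removed, r between Thy1 and Tespa1 was -0.66, with Itpkb-/- library 1 highest in Thy1 and library 2 in Tespa1. Il7r and Dntt followed each other within genotypes (r = 0.82), while Satb1 and Cd27 ran in opposite directions (-0.95). The value for Gzmb and Ikzf1 was 0.94 and rests on the 3 Itpkb-/- libraries alone, since Gzmb was at 0 in every wild-type library. These are descriptions over 6 libraries that share depth, scaling and genotype, and those that involve Il7r, Dntt or Gzmb rest on few reads.

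Among 10161 or 10162 other genes with a mean of at least 5 normalized CPM, the gene most like each member over the 6 libraries was Zeb2 for Thy1 (r = 0.989), Mrpl15 for Tespa1 (0.993), Papd4 for Gzmb (0.995) and Lrrc8d for Dntt (0.981). For Rag1 it was Nme7 (0.991), for Satb1 Ints9 (0.979), for Ikzf1 Bckdk (0.991) and for Cd27 Casc4 (0.989). None of these 8 genes was itself called between genotypes, and Papd4, the closest, was at 45.5, 48.6 and 40.1 normalized CPM in Itpkb-/-, against 31.3, 32.0 and 32.0 in wild-type libraries. With 6 libraries such values are common: between 6 and 68 genes exceeded an r of 0.95 with a given member.

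The other genes of these pathways were taken from 9 lists that share no gene with the 9 members. The lists were chosen with earlier results of these data known, so their counts and adjusted p values are a description. Beside each list stand 2.27% of all genes in the fit called higher and 3.24% lower. Of 13 other genes of lymphoid-primed progenitors in the fit, 4 rose in Itpkb-/- cells, 1 fell and 8 missed the limit. Their median log2 difference was 0.034. Plac8, a small cysteine-rich protein gene of early progenitors, rose from 58.5 ± 19.1 to 298.2 ± 100.5 normalized CPM (limma, log2 difference 2.32, SE 0.28, adjusted p = 0.00346). Cd53, a leukocyte tetraspanin, rose from 24.9 ± 5.28 to 104.1 ± 23.1 (2.02, SE 0.21, adjusted p = 0.00227), and Wfdc17 from 6.03 ± 3.40 to 24.5 ± 4.31 (1.98, SE 0.37, adjusted p = 0.0309). The errors are SDs with n = 3 in each group, and these 3 rises passed whichever library was left out.

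Notch1, the receptor whose signal commits progenitors to the T lineage, fell from 74.6 ± 5.81 to 38.6 ± 8.0 normalized CPM (SD, n = 3 each; limma, log2 difference -0.95, adjusted p = 0.0309), and did not pass without wild-type library 3 (0.200). The list thus held genes that moved in both directions. Flt3, the receptor excluded at the protein level by the sort, was at 25.9, 37.9 and 22.9 normalized CPM in Itpkb-/-, against 7.21, 31.5 and 15.3 in wild-type libraries 1 to 3, which overlapped. With the replicate block 6 genes of the list rose and 2 fell, where 9.15% of all genes were called higher and 8.97% lower. Flt3 and Ly86 were among those higher and Gimap6 among those lower.

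Of 20 other lymphoid transcription factor genes, 1 rose, 3 fell and 16 missed the limit (median -0.058). Tox, a factor of CD4 T cell and innate lymphoid development, fell from 41.8 ± 7.87 to 15.8 ± 6.66 normalized CPM (SD, n = 3 each; limma, log2 difference -1.42, SE 0.30, adjusted p = 0.0432), and did not pass without wild-type library 3 (0.232). Gata3, which drives early T cell development, fell by 0.86 on the log2 scale (adjusted p = 0.115), and Bach2, a repressor active in B and T cells, by 0.93 (adjusted p = 0.134). Runx3, needed for cytotoxic T cells, rose by 0.55 (adjusted p = 0.0870). The other Ikaros family genes in the fit, Ikzf2, Ikzf4 and Ikzf5, did not pass.

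Like Tox, the other 3 factors lost their call without single libraries. Gata3 did not pass without Itpkb-/- library 2 (limma, adjusted p = 0.308) or without wild-type library 1, 2 or 3 (0.289, 0.196 and 0.304). Bach2 did not pass without Itpkb-/- library 1 or 2 (0.155 and 0.316) or wild-type library 1, 2 or 3 (0.279, 0.198 and 0.409), and Runx3 without Itpkb-/- library 3 (0.186) or wild-type library 1, 2 or 3 (0.221, 0.197 and 0.265). With the replicate block, which called 9.15% of all genes higher and 8.97% lower, 3 factors rose and 5 fell, with Zbtb16 and Ets1 added to the rises and Foxo1 and Ikzf4 to the falls.

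Around Il7r, 1 of 10 genes of interleukin-7 receptor signalling passed, and the median was -0.060. Cish, a feedback inhibitor that cytokine signals induce, fell from 53.96 ± 8.81 to 29.3 ± 6.45 normalized CPM (SD, n = 3 each; limma, log2 difference -0.87, adjusted p = 0.0727). It did not pass without Itpkb-/- library 2 (0.188), wild-type library 1 (0.198) or wild-type library 3 (0.305). The chains that pair with Il7r, Il2rg and Crlf2, differed by 0.043 and -0.042 on the log2 scale, and neither passed.

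Around Rag1 and Dntt, none of 11 genes of recombination and end joining passed (limma), 3 had an unadjusted p under 0.05, and edgeR called 0 and DESeq2 1. The median was 0.29. With the replicate block Prkdc, Hmgb1 and Hmgb2 rose, 3 of 11 genes, where 9.15% of all genes were called higher. Rag2, the partner of Rag1, stayed below the limit for the fit, at 0, 0.932 and 0.524 normalized CPM in Itpkb-/-, against 0.249, 1.64 and 0 in wild-type libraries 1 to 3. The Rag2 values overlapped between genotypes, as those of Rag1 did.

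Around Gzmb, none of 11 cytotoxic granule genes passed (limma), 2 had an unadjusted p under 0.05, and edgeR and DESeq2 called 0. Perforin (Prf1), which opens the target cell for granzymes, had 3, 2 and 0 reads in Itpkb-/- libraries 1 to 3 and 0, 1 and 0 in wild-type libraries. Nkg7 and Srgn, which encode a granule membrane protein and the proteoglycan that packs granules, rose with the replicate block (log2 differences 1.14 and 0.36). These are 2 of 11 genes, beside 9.15% of all genes called higher with the block. Without the block, the fit that left out Itpkb-/- library 3 called 2 genes of this list.

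Around Thy1, Tespa1, Ikzf1 and Cd27, none of 11 genes of T cell receptor signalling, 4 IP3 receptor genes and Tespa1 relatives, 12 NuRD subunits that partner Ikaros and 5 genes of CD27 signalling passed (limma). The counts at an unadjusted p under 0.05 were 1, 1, 0 and 0, edgeR and DESeq2 called 0 in each list, and the medians were 0.094, -0.19, 0.17 and 0.20. With the replicate block Lcp2 fell in the first list and Itpr3 in the second, where 8.97% of all genes were called lower. Itpr1, the most abundant IP3 receptor gene by normalized CPM, was at 66.2, 82.8 and 105.4 normalized CPM in Itpkb-/-, against 86.0, 98.9 and 93.1 in wild-type libraries, which overlapped. Itpr3 was at 10.9, 20.0 and 27.0 in Itpkb-/-, against 29.6, 28.7 and 28.9 in wild-type libraries. All its Itpkb-/- values lay below the wild-type ones, as for 11.3% of all genes in the fit. It also passed, as lower, without Itpkb-/- library 3. Tespa1 was thus higher in Itpkb-/- libraries beside IP3 receptor genes that did not pass in the main fit.

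**Figure D3:**
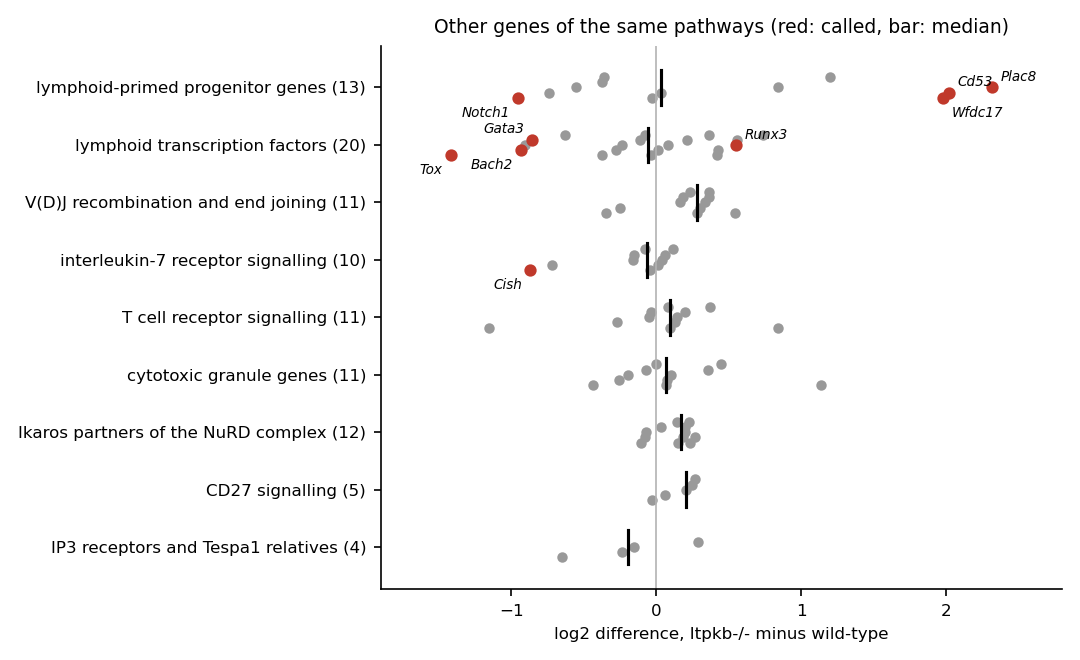
Each point is a gene of 1 of 9 pathway lists (rows, with the number in the fit), placed by its log2 difference (horizontal axis, Itpkb-/- minus wild-type); red points passed the limit of an adjusted p of 0.15 (limma; at most the 4 with the smallest p drawn per list) and black bars are medians of all genes of a list in the fit. Of the 10 genes that passed, the 9 drawn lie in the lists of lymphoid-primed progenitors, lymphoid transcription factors and interleukin-7 receptor signalling.

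Markers of lymphocytes, in which Thy1, Tespa1 and Gzmb are best known, were present at differing levels. The 15 T cell markers summed to 53.1 to 65.3 normalized CPM in Itpkb-/- and 49.5 to 56.6 in wild-type libraries, most of it from Lat, with Lck next. Among the defining ones, Cd4 had 16 to 50 reads in every library (2.69 to 9.31 normalized CPM), and its genotypes overlapped. Cd3g, Cd8a, Cd8b1 and Trat1 had 0 reads in all 6 libraries, Cd3e had 1 read, in a wild-type library, and Cd3d had 6 reads. The 11 B cell markers summed to 33.2 to 39.2 in Itpkb-/- and 32.2 to 42.5 in wild-type libraries, nearly all from Cd79b, and Pax5 had 0 reads.

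The 11 NK cell markers summed to 89.8 to 282.8 normalized CPM in Itpkb-/- and 60.7 to 110.0 in wild-type libraries, and Nkg7 made up nearly all of it. Without Nkg7 the sum was 3.15 to 4.97 in every library. Klrb1c came next, with 12 to 26 reads in every library. It was at 2.61, 2.49 and 2.49 normalized CPM in Itpkb-/-, against 4.97, 3.89 and 2.23 in wild-type libraries, which overlapped. Klrd1 had 0 reads and Ncr1 had 2. Nkg7 measured 164.9, 277.8 and 86.6 normalized CPM in Itpkb-/- libraries 1 to 3, against 55.7, 105.8 and 61.4 in wild-type libraries, and was just outside the limit (limma, adjusted p = 0.153). It stood highest in the library with the most granulocyte RNA.

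Markers of myeloid cells moved with some of these values. The 12 granulocyte markers summed to 6632, 18748 and 955 normalized CPM in Itpkb-/- libraries 1 to 3, against 3803, 2711 and 738 in wild-type libraries, with Mpo and S100a9 the most abundant. In Itpkb-/- cells Gzmb ran in the same order as this sum, highest in library 2 and lowest in library 3. So did the sums of NK cell, of mast cell and basophil, and of erythroid markers. Tespa1 was highest in Itpkb-/- library 2, and Thy1 was lowest there. Wild-type libraries 1 and 2, with granulocyte sums of 3803 and 2711, had 0 Gzmb reads, and Itpkb-/- library 3, with 955, had 10. In wild type Tespa1 was highest in library 2 and the granulocyte sum in library 1. Within each pair of same-numbered libraries the granulocyte sum was higher in Itpkb-/-. None of the 12 markers passed without the block (limma, 1 had an unadjusted p under 0.05, and edgeR called 0). With the block all 12 rose, where 9.15% of all genes were called higher. Without Itpkb-/- library 2 the log2 differences were 1.79 for Gzmb, 1.45 for Tespa1 and 1.55 for Thy1. The part of granulocyte RNA in the differences of these members was not tested.

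Mast cells and basophils can express Gzmb too. Their 8 markers summed to 28.3, 49.7 and 10.2 normalized CPM in Itpkb-/- libraries 1 to 3, against 23.1, 19.0 and 19.2 in wild-type libraries, and led with Cpa3 and Hdc. Of the 5 in the fit, 1 rose, the high-affinity IgE receptor gene Fcer1a, where 2.27% of all genes were called higher. It went from 1.54 ± 0.821 to 6.73 ± 1.74 normalized CPM (SD, n = 3 each, limma, log2 difference 1.64, adjusted p = 0.0595). Hdc rose with the block only (log2 difference 1.02), where 9.15% of all genes were called higher. Cpa3, Mcpt8 and Prss34 passed in neither fit (0.045, -1.16 and -1.09). Ms4a2, not in the fit, had 3, 18 and 3 reads in Itpkb-/-, against 0, 0 and 2 in wild-type libraries. Mcpt8, a basophil protease gene of the same chromosome 14 family as Gzmb, was at 0.436, 3.42 and 0 in Itpkb-/- libraries. These libraries ran in the order of Gzmb. In wild-type libraries, which had 0 Gzmb reads, Mcpt8 was at 6.47, 0.448 and 5.58, so its genotypes overlapped. Ctsg, a granulocyte marker of that family, was at 56.8, 619.5 and 9.44 in Itpkb-/-, against 8.21, 32.3 and 7.82 in wild-type libraries. Its Itpkb-/- libraries ran in the order of Gzmb, and its genotypes overlapped. Ctsg passed with the block (limma, adjusted p = 0.00565) but not without it (0.339). The part of mast cells and basophils in the Gzmb values was not tested. Plasmacytoid dendritic cell markers summed to 171.4 to 199.7 in Itpkb-/- and 207.3 to 218.1 in wild-type libraries, most of it Tcf4 and Bst2, and erythroid markers to 104.5 to 601.5 and 141.1 to 354.9, led by Car1 and Hbb-b1.

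**Figure D4:**
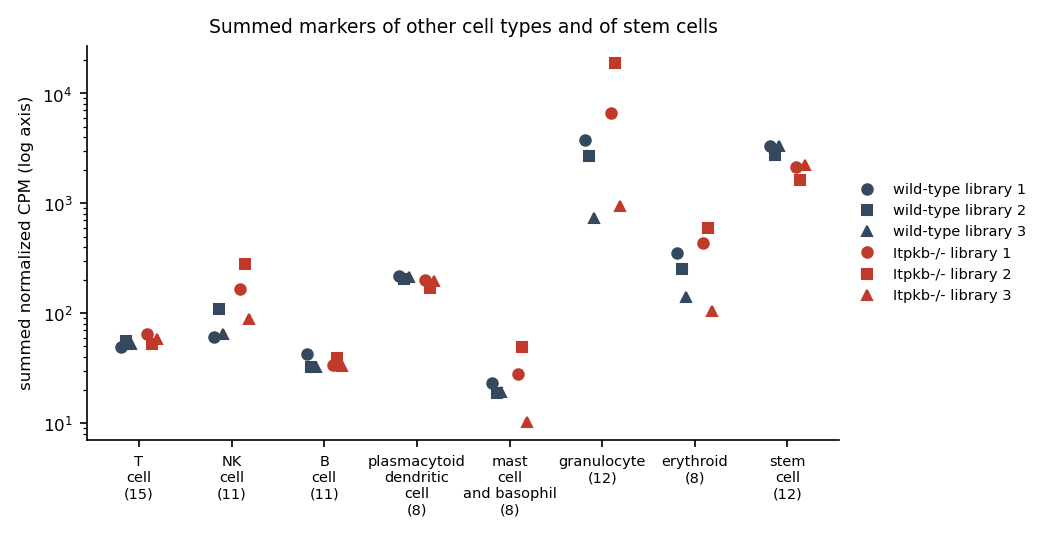
Summed normalized CPM (vertical log axis) of each marker list (horizontal axis, number of genes in brackets) in the 3 wild-type (dark) and 3 Itpkb-/- (red) libraries, with marker shapes for the library number. T and B cell sums overlap between genotypes, and the granulocyte sum is highest, at 18748, in Itpkb-/- library 2.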

How the data were processed

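Amplified RNA of 6 libraries, 3 per genotype, was sequenced. Per the submitters' processing notes, the authors used CASAVA 1.8.2, cutadapt, TopHat2 2.0.8b, build mm10, Partek and edgeR; the series design text gives TopHat 1.4.1 and Partek 6.6. The deposited values are a signal, gene counts divided by 1 factor per library, called normalized CPM here. All of them (100%) were whole reads within 0.01 read. Per the labels' protocols the amplification kit is the NuGEN Ovation system, with no strand stated, so overlapping genes cannot be separated.

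Here limma 3.58.1 (R 4.3.3) with a mean-variance trend was run on log2(value + 1) over genes at 1 or more in at least 3 libraries, with Benjamini-Hochberg adjustment and a limit of 0.15, the false discovery limit of the series design text. The script was tested on simulated data. edgeR 4.0.16 and DESeq2 1.42.0 on the recovered reads were alternatives and called 692 and 883 genes. Positions and exon lengths are from GENCODE on mm10, upstream sequences from RefSeq on GRCm38.p6.

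The members and lists were chosen with earlier results of these data known. Named are the members, Itpkb, called list genes (at most 4 per list), the gene most like each member and leading markers. Other genes were chosen after their values were seen (Flt3, Fcer1a, Ms4a2, Prss34, Nkg7, the granzymes, Rag2, Prf1, Mcpt8, Ctsg, Il2rg, Crlf2 and Itpr1). So were genes named for their call with the block, and the defining markers. One called gene of the list of lymphoid-primed progenitors is counted there but not reported here. The list symbols Ighm, Itprid1 and Itprid2 matched no row.

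Same-numbered libraries of the genotypes deviated together (correlations across genes of 0.296, 0.268 and 0.284, others at most -0.048). The numbers come from the titles, and the labels do not define them. Only the alternative fit with the replicate block used them as pairs, and it called 2176 genes. The main fit left them out and called 661, and limma results given without mention of the block are from it. Libraries of a genotype differed by a chi-square per degree of freedom of 5.93 to 25.2, so none was a duplicate.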

Additional observations from a re-analysis of the deposited data

How the results depend on the processing

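Over 15 alternatives, Thy1, Tespa1 and Ikzf1 kept a positive log2 difference wherever they could be fitted, and Cd27 a negative one. That of Gzmb could only be positive, with 0 reads in wild type. The count of members called was 3, and 1 with edgeR on the recovered reads and with a minimum of 5 in 3 libraries (Thy1 in both); without 1 library it ran from 0 to 3, and was 0 without wild-type replicate 3. The count over all genes was 661, 2176 with the replicate block and 74 to 837 without 1 library, with 74 without wild-type replicate 3, 266 without Itpkb-/- replicate 2, 299 and 297 without wild-type replicates 1 and 2. Called list genes numbered 10, 24 with the replicate block and 3 to 15 without 1 library (6 without Itpkb-/- replicate 2, 3 without wild-type replicate 3). The block changed no member's call. Without TMM factors the calls were 200 higher and 410 lower, against 272 and 389. Itpkb passed at a log2 difference of -0.73 with the replicate block and ran from -0.92 to -0.54 without 1 library, passing without Itpkb-/- replicate 3 (adjusted p = 0.118). The cause of these changes was not tested. Of 117 member values under alternatives 111 moved by less than the SD, and the other 6 were of Tespa1, Gzmb and Il7r. Il7r had values in 2 alternatives only. Gzmb, Il7r, Dntt, Rag1 and Tespa1 rest on 0 to 51 reads per library.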
